A study of Mus musculus with 8 samples.

Results

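The 10 genes described here handle iron and haem in inguinal white adipose tissue (iWAT), a subcutaneous fat depot. They were chosen by symbol, and every array probe whose RefSeq accession names one of them was taken, which gave 18 of the 55681 probes on the array. All 10 genes and all 18 probes gave a signal well above background on 4 or more of the 8 arrays, and the genes were tested among 14730. The 8 samples were 4 from Senp2-aKO mice (Senp2flox/flox ; Adipoq Cre) and 4 from control mice (Senp2flox/flox), all given a high-fat diet (58 kcal% fat) for 12 weeks from the age of 8 weeks and housed at 22 to 24 °C. The adiponectin promoter drives Cre in adipocytes, so that other cells of the fat pad keep Senp2, the enzyme that takes SUMO, a small protein tag, off other proteins. The controls carry the same floxed alleles and no Cre is listed for them. Total RNA was read on 1-colour Agilent mouse arrays, 1 array per sample, and the series asks about browning, the gain of heat-producing adipocytes in white fat.

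Iron enters cells bound to transferrin, is kept inside ferritin and leaves through ferroportin. Mitochondria use it to build haem, the group that carries electrons in the cytochromes, and brown and beige adipocytes are rich in mitochondria. Cells adjust this traffic largely after transcription: regulatory proteins bind the ferritin mRNAs to block their translation and bind the transferrin receptor mRNA to protect it when iron is scarce, so mRNA levels do not give ferritin protein.

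Levels are log2 of the processed signal relative to the 75th percentile of the same array, and differences are log2 fold changes, Senp2-aKO minus control. A gene passed at an adjusted p under 0.05 in limma with Benjamini-Hochberg adjustment over all 14730 genes. Senp2 itself lay at log2 levels of 2.12 to 2.22 on the Senp2-aKO arrays and 2.37 to 2.52 on the control arrays, 82.8% of control (95% interval 73.3 to 93.6), which just missed the threshold (limma adjusted p = 0.0507). Without array aKO 2 the Senp2 difference passed (log2 fold change -0.25, limma adjusted p = 0.0452). All 8 arrays lay on 1 slide read in 1 scan, with the Senp2-aKO arrays in another row than the controls, so the groups and the slide rows cannot be told apart. Signal at the 75th percentile was 324 to 382 signal units on the Senp2-aKO arrays and 408 to 446 on the control arrays. Array aKO 2 stood apart: its correlation with the other Senp2-aKO arrays across genes was 0.964 to 0.969, against 0.985 to 0.991 among controls, and its T lymphocyte marker mean was 2.81, where the other 7 arrays lay between -0.81 and 0.55. Where leaving out aKO 2 changed the call for any of the 10 genes, for Senp2 or for a gene that passed, the value without it is given too. Every comparison below is of n = 4 arrays per group. The labels do not state that each sample came from a separate mouse, so p-values measure the spread between these samples, which may be technical.

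Of the 10 genes, 1 rose in Senp2-aKO fat and 0 fell. Alas1, which makes the first and rate-limiting step of haem synthesis, was the gene that rose. Hmox1, the enzyme that breaks haem down, had the largest difference of the 10 (1.90-fold higher) and did not pass. The share of all genes that passed was 14.4%, with 7.29% higher and 7.12% lower, so 1 of 10 is no larger a share than in the whole table. At an unadjusted p under 0.05, limma set 4 of the 10 apart (Alas1, Hmox1 and Fth1 higher, Slc40a1 lower), against 32.3% of all genes. In 8 of the 10 the log2 fold change was above 0, against 47.3% of all genes, and the median of the 10 was 0.15, against -0.02 over all genes. With the arrays scaled on their median instead, the split of all calls was 772 higher and 1312 lower, against 1074 and 1049 as reported, and Alas1 was again the gene that rose. With every array given the same distribution of signals (quantile normalisation), 0 of the 10 rose, and Trf (-0.11) and Ftl1 (-0.05) lay below 0. Of the 10, 4 were among the 500 brightest genes. The median log2 fold change of those 500 was 0.19 as reported and -0.04 under quantile normalisation.

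**Figure D1:**
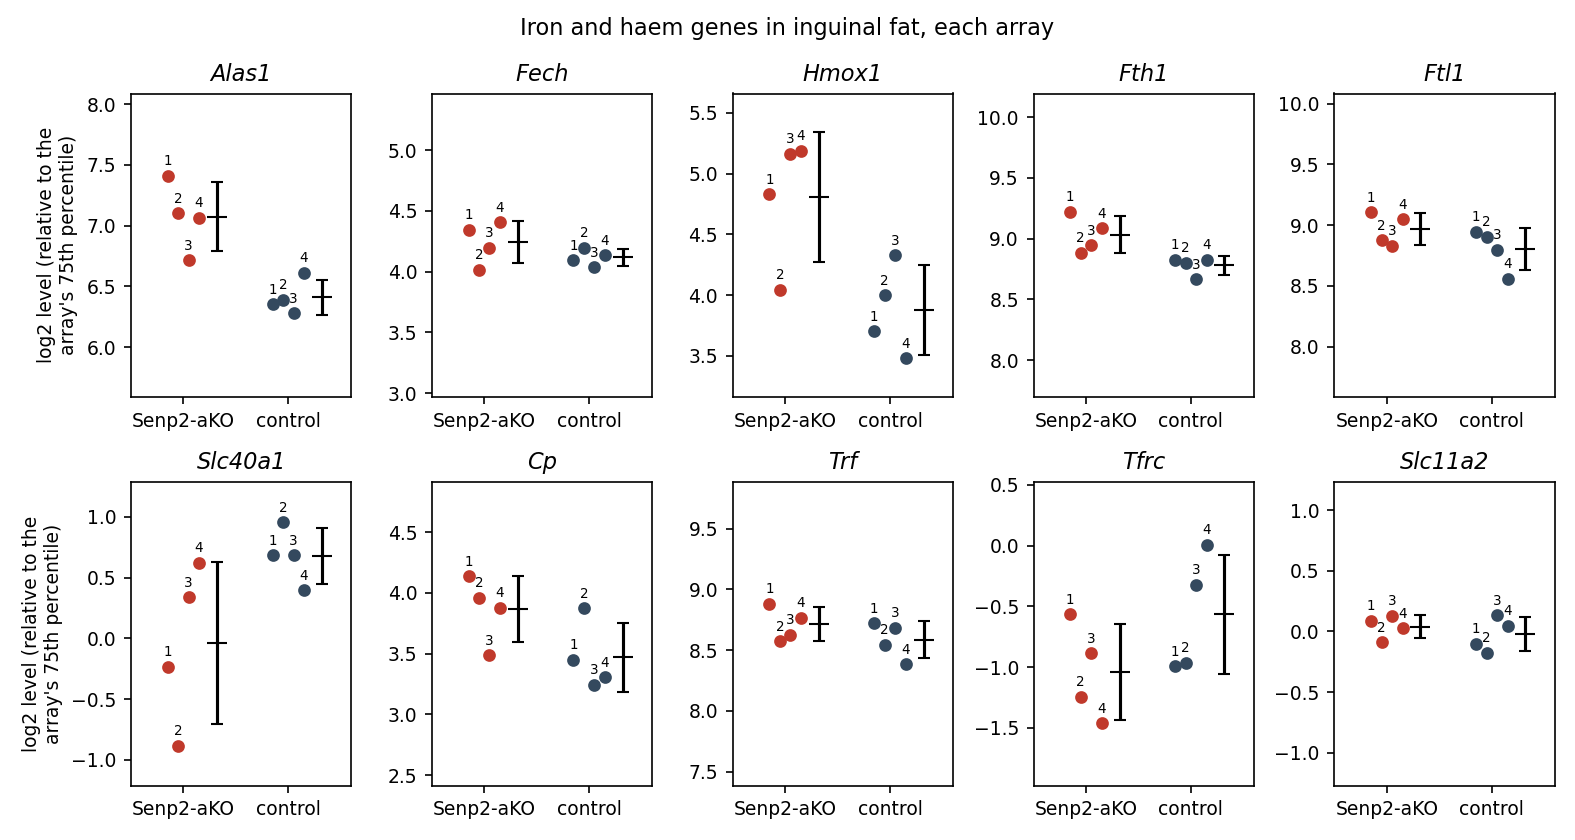
Log2 level, relative to the 75th percentile of the array, of each iron and haem gene on the 4 Senp2-aKO arrays (red) and the 4 control arrays (dark blue), with sample numbers beside the points and the mean ± SD beside each group; every vertical axis spans the same log2 range. All Senp2-aKO points of Alas1 and Fth1 lie above all control points, and aKO 2 is the lowest Senp2-aKO point of Hmox1 and of Slc40a1.

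The promoter of Alas1 is shown because it belongs to the only one of the 10 genes that rose. The RefSeq table of build GRCm38.p6 holds windows from 250 bases before to 50 bases after a transcription start, and 5 of the 10 genes have windows in it, 9 in all. Alas1 has 2 starts, and the 250 bases before the upstream start (chr9:106247955-106248204, minus strand) read as follows.
Alas1 upstream: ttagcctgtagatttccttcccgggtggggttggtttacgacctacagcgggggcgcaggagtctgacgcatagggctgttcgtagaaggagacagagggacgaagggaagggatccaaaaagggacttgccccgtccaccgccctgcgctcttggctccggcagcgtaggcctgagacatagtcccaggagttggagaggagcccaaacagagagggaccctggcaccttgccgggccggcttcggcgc

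The windows were searched on both strands for the letters of 4 factor motifs: GCGCANGCG for NRF1, a factor of nuclear genes for mitochondrial proteins, TTGCNNAA for C/EBP factors, the family the series is about, TGACNNNGC for the antioxidant response element and TGACGTCA for the cAMP response element. Of all 32851 windows in the table, 6.25% hold the first, 10.8% the second, 12.4% the third and 1.79% the fourth. Alas1 held the NRF1 letters at 2 places, 223 and 195 bases before its downstream start. They begin at bases 2 and 30 counted downstream from the upstream start, beyond the end of the 250 bases printed above. Fth1 held the C/EBP letters at 2 places, 129 and 58 bases before a start. Cp held the C/EBP letters 70 bases before a start, and the windows of Ftl1 and Tfrc held none of the 4 motifs. The antioxidant and cAMP letters were in none of the 9 windows. Trf, Slc40a1, Slc11a2, Hmox1 and Fech have no window and were not searched. A match describes the letters and is no evidence that a factor binds there. The stretches with matches are printed in lower case with the matched letters in capitals, each of 30 bases.
Alas1 first NRF1 letters (chr9:106247934-106247963, minus strand): cttcggcgcgCGCGTGCGCgcggcaggccg
Alas1 second NRF1 letters (chr9:106247906-106247935, minus strand): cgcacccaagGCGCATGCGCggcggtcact
Fth1 first C/EBP letters (chr19:9982507-9982536, plus strand): ggcaccgctcTTGCAGAAgctcagagcccc
Fth1 second C/EBP letters (chr19:9982578-9982607, plus strand): ccctgcgggtTTGGGCAAcacgcccacagg
Cp C/EBP letters (chr3:19957169-19957198, plus strand): ttagttactcTTTTGCAAcattaaattgtg

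Haem synthesis begins with Alas1, which joins glycine and succinyl-CoA in mitochondria, and ends with Fech, which inserts iron into the ring. Alas1 had log2 levels of 7.41, 7.10, 6.72 and 7.06 on the 4 Senp2-aKO arrays, against 6.35, 6.39, 6.28 and 6.61 on the 4 control arrays. The lowest Senp2-aKO array, aKO 3, lay just above the highest control, control 4, so the groups did not overlap. Alas1 rose 1.59-fold (95% interval 1.24 to 2.02; log2 fold change 0.67, SE 0.15) with an adjusted p of 0.0266 in limma. Its second probe, dimmer on every array, gave 0.73 (SE 0.20) and also put all 4 Senp2-aKO arrays above all controls, with an adjusted p of 0.0557 in the limma fit over all 30508 kept probes.

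The Alas1 call was close to its threshold. It ended on leaving out aKO 1, aKO 4, control 1, control 2 or control 3 (limma adjusted p from 0.0526 to 0.0785) and held without aKO 2, aKO 3 or control 4 (0.0124 to 0.0417), with a log2 fold change of 0.55 to 0.78 in all 8 omissions. Under quantile normalisation, which gives every array the same distribution of signals, the difference was 0.41 (SE 0.13, limma adjusted p = 0.0617). Before any scaling between arrays the signal of Alas1 was 40191 to 55223 units on the Senp2-aKO arrays and 33281 to 40213 on the control arrays, with aKO 3 just below control 4.

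Fech had log2 levels of 4.02 to 4.41 on the Senp2-aKO arrays and 4.04 to 4.20 on the control arrays, and the groups overlapped. Its difference was 1.09-fold (95% interval 0.921 to 1.29, limma adjusted p = 0.450). Of the other 12 genes listed under haem synthesis, 0 passed in limma, and at an unadjusted p under 0.05 the counts were 0 higher and 1 lower. Their median log2 fold change was -0.02. Among them were Alas2, the form of the first enzyme in red blood cells (log2 fold change -0.45, SE 0.39), and Alad of the second step (0.23, SE 0.18). The mean of the 5 red blood cell markers measured, Alas2 among them, was 4.52 to 5.90 on the Senp2-aKO arrays and 4.69 to 5.35 on the control arrays.

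Hmox1, haem oxygenase 1, opens the haem ring and sets its iron free, and is known for its induction by haem and oxidative stress and for its high level in macrophages. Its log2 levels were 4.83, 4.04, 5.16 and 5.19 on the Senp2-aKO arrays, against 3.71, 4.0, 4.33 and 3.48 on the control arrays. Array aKO 2 lay between the controls, and the other 3 Senp2-aKO arrays lay above all 4 of them. The difference was 1.90-fold (95% interval 1.21 to 3.004; log2 fold change 0.93, SE 0.29) and missed the threshold (limma adjusted p = 0.0645). Without aKO 2 it passed (log2 fold change 1.18, SE 0.21, limma adjusted p = 0.0147), as it did when limma weighted each array by its quality (1.19, adjusted p = 0.00784). Hmox1 passed in only these 2 of the 18 alternative settings. In the others it missed the threshold, with limma adjusted p up to 0.154.

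By the second Hmox1 probe the log2 fold change was 0.80 (SE 0.28), with the same array, aKO 2, among the controls. The macrophage marker mean, over 10 genes of which 0 passed, was 3.59, 3.76, 3.30 and 3.31 on the Senp2-aKO arrays and 2.84 to 3.54 on the control arrays (exact permutation p = 0.143, two-sided). Of the Senp2-aKO arrays this mean was highest on aKO 2, where Hmox1 was lowest. Of the controls both were highest on control 3. The part of macrophages in the Hmox1 result was not tested. In bulk tissue, a change in the number of cells of a type and a change in RNA per cell cannot be told apart.

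**Figure D2:**
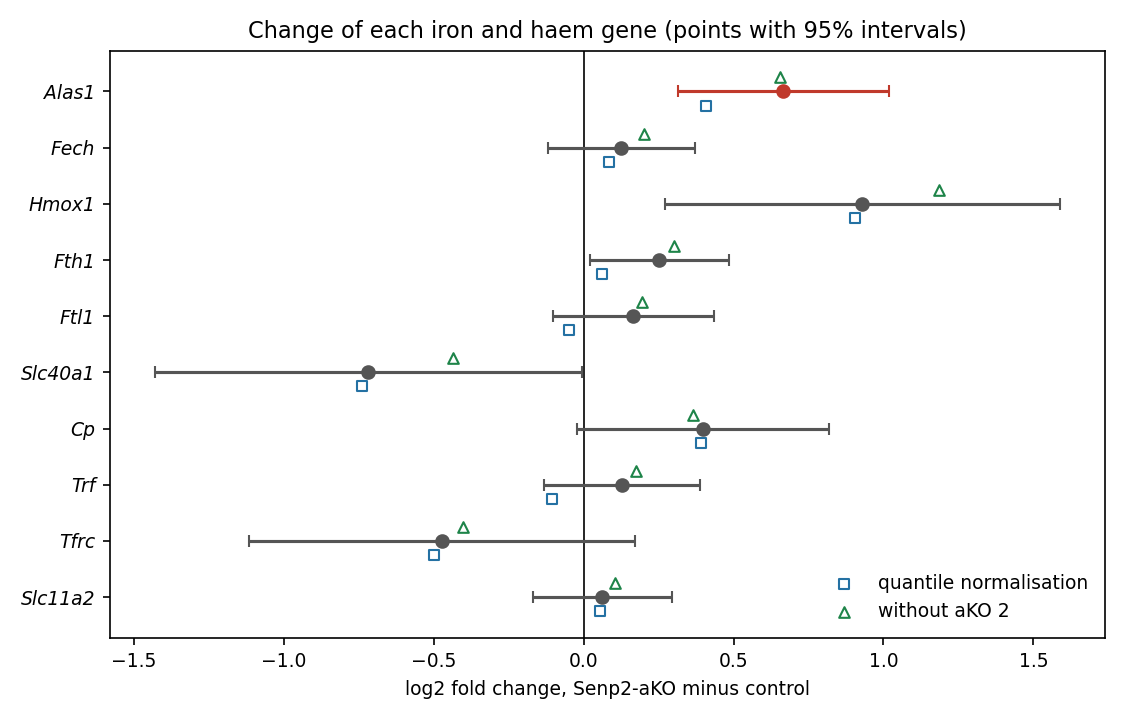
Log2 fold change of each gene, Senp2-aKO minus control, with its 95% interval (circles with bars; red passed, grey did not), the value under quantile normalisation (open squares) and the value without array aKO 2 (open triangles). Alas1 is the gene that passed, at 0.67, and Hmox1 moves to 1.18 without aKO 2.

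Ferritin stores iron in a shell of heavy chains, which oxidise it, and light chains, which help it to mineralise. Fth1, the heavy chain, had log2 levels of 9.22, 8.88, 8.94 and 9.08 on the Senp2-aKO arrays, against 8.83, 8.80, 8.67 and 8.83 on the control arrays. The groups did not overlap, as in 26.3% of all genes (11.2% higher and 15.1% lower), and the gap between aKO 2 and the highest controls was small. Fth1 was 1.19-fold higher (95% interval 1.01 to 1.40; log2 fold change 0.25, SE 0.10) and did not pass (limma adjusted p = 0.127). Before scaling, its signal was 169656 to 193907 units on the Senp2-aKO arrays and 181370 to 186758 on the control arrays, which overlapped.

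Ftl1, the light chain, had log2 levels of 8.83 to 9.11 on the Senp2-aKO arrays and 8.56 to 8.95 on the control arrays. Its log2 fold change was 0.16 (95% interval -0.10 to 0.43, limma adjusted p = 0.365) by the brighter probe and -0.03 (-0.54 to 0.48) by the dimmer. Ferritin genes have many near-identical pseudogenes, so signal from such copies may be included in these probes. Alas1, Fth1, Ftl1 and Trf were among the 500 genes with the highest mean signal, and the median log2 fold change of those 500 was 0.19 as reported and -0.04 under quantile normalisation. Under that normalisation Fth1 stood at 0.06 and Ftl1 at -0.05. Of the 3 other storage genes measured, the ferritin receptor of autophagy Ncoa4 and the iron chaperones Pcbp1 and Pcbp2, 0 passed, with log2 fold changes of 0.01 to 0.23.

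Ferroportin, encoded by Slc40a1, is the known exporter of iron from cells, and the copper protein ceruloplasmin, encoded by Cp, oxidises the iron that leaves. Slc40a1 had log2 levels of -0.23, -0.88, 0.34 and 0.62 on the Senp2-aKO arrays, against 0.68, 0.96, 0.69 and 0.39 on the control arrays. The Senp2-aKO arrays spread widely, with an SD of 0.67 against 0.23 in controls, and aKO 4 lay among the controls. The signal was 60.8% of control (95% interval 37.1 to 99.6; log2 fold change -0.72, SE 0.31) and did not pass (limma adjusted p = 0.152). Without aKO 2 the log2 fold change was -0.44 (SE 0.22, limma adjusted p = 0.196), and without aKO 4 it was -0.94 (SE 0.28, adjusted p = 0.0843).

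Hmox1 and Slc40a1 thus had their lowest Senp2-aKO level on the same array, aKO 2, and their highest on aKO 4. Cp had log2 levels of 4.14, 3.96, 3.49 and 3.88 on the Senp2-aKO arrays, against 3.45, 3.87, 3.24 and 3.31 on the control arrays. Control 2 reached into the Senp2-aKO range and aKO 3 into that of the controls, so the groups overlapped. The difference was 1.32-fold (95% interval 0.985 to 1.76, limma adjusted p = 0.174), while a probe listed under another Cp transcript had a log2 fold change of -0.03 (SE 0.16). Heph, a relative of ceruloplasmin in the cell membrane, did not pass (log2 fold change -0.32, SE 0.15).

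Transferrin, encoded by Trf, carries iron in blood, and its receptor, encoded by Tfrc, takes the complex into the cell, where Slc11a2 moves the iron out of the endosome. Trf had log2 levels of 8.57 to 8.88 on the Senp2-aKO arrays and 8.39 to 8.72 on the control arrays. The groups overlapped, and the log2 fold change was 0.13 (95% interval -0.13 to 0.39) by the brighter probe and 0.05 (-0.31 to 0.42) by the other, and -0.11 under quantile normalisation.

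Tfrc had log2 levels of -0.57, -1.24, -0.88 and -1.46 on the Senp2-aKO arrays, against -0.99, -0.96, -0.32 and 0.01 on the control arrays, by a probe with 10 spots on each array. Controls 1 and 2 lay within the Senp2-aKO range and controls 3 and 4 above it. The signal was 72.1% of control (95% interval 46.2 to 112; log2 fold change -0.47, SE 0.28), with an adjusted p of 0.278 in limma. The second Tfrc probe stood at -0.64 on the log2 scale (SE 0.22, adjusted p = 0.0988 in the limma fit of probes), and the dimmest, well above background on 2 of 4 arrays in each group, at 0.55 (SE 0.39). The 3 probes therefore did not share a direction. Slc11a2 had log2 levels of -0.09 to 0.13 on the Senp2-aKO arrays and -0.17 to 0.13 on the control arrays, with a difference of 1.04-fold (95% interval 0.889 to 1.23), the smallest of the 10.

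**Figure D3:**
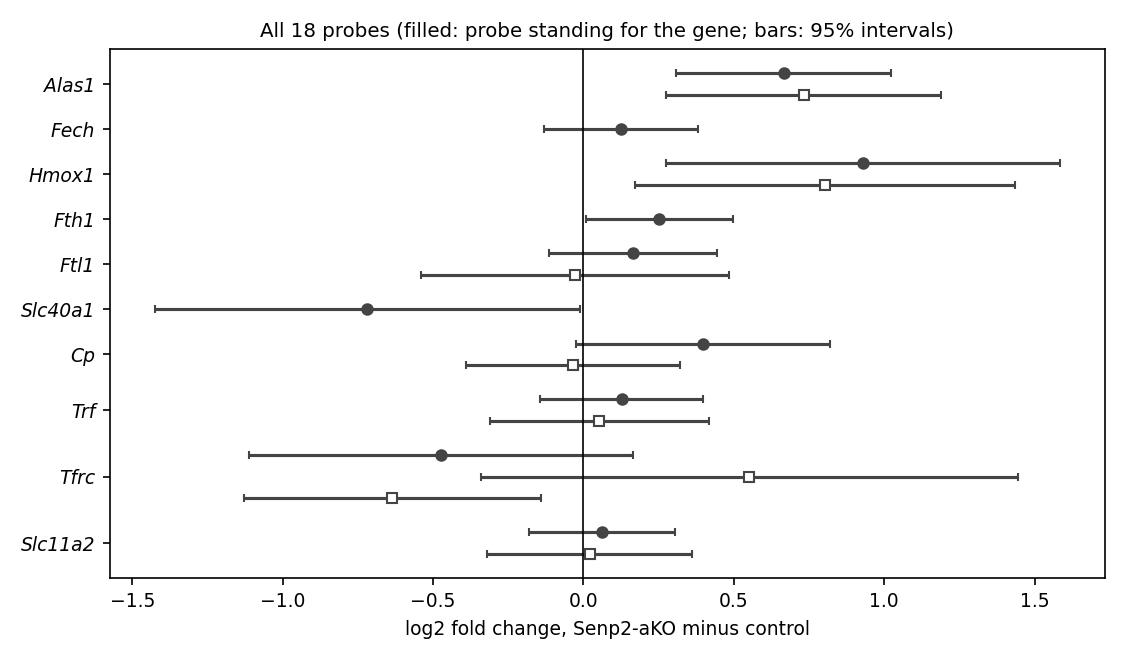
Log2 fold change, Senp2-aKO minus control, of all 18 probes with 95% intervals from the limma fit over 30508 kept probes; the filled symbol is the probe that stands for the gene. Both Alas1 probes, both Hmox1 probes and the Fth1 probe lie above 0 with intervals that do not reach it. The Slc40a1 probe and a Tfrc probe lie below 0 with intervals that do not reach it, and the 3 Tfrc probes lie on both sides of 0.

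Taken probe by probe, 1 of the 18 passed, against 9.83% of the 30508 kept probes, and in 3 of the 18 the groups did not overlap, against 23.1%. Those 3 were the Fth1 probe and both Alas1 probes. Of the 7 genes with several probes, Alas1, Hmox1, Trf and Slc11a2 had probes of 1 sign, and Ftl1, Cp and Tfrc had probes of both signs.

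Around these genes, 75 others of iron and haem metabolism were listed by function and 71 were measured. Of the 71, 8 rose, 3 fell and 60 did not pass, which is 15.5% called beside 14.4% of all genes, and their median log2 fold change was 0.06. Iron uptake held the most calls: of 11 measured genes 3 rose and 3 fell. Haem synthesis, storage and export held 0. Of the 11 genes that passed, 10 are named here, and Lcn2, Tfr2 and Steap4 were added after their values were seen.

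Slc39a14, a membrane carrier of zinc and of iron that is not bound to transferrin, had log2 levels of 0.63, 1.08, 0.68 and 0.61 on the Senp2-aKO arrays, against -0.68, -0.76, -0.72 and -0.77 on the control arrays. The control arrays were nearly alike, and every Senp2-aKO array lay well above them. Slc39a14 rose 2.79-fold (95% interval 2.31 to 3.37, limma adjusted p = 0.00212) and passed in all 18 alternative settings. Steap2, a reductase of iron and copper, rose 2.77-fold (95% interval 1.80 to 4.27, limma adjusted p = 0.0142) and also passed in all 18. Lcn2, lipocalin 2, which binds iron-carrying siderophores and is secreted by fat, rose 2.66-fold (95% interval 1.64 to 4.32, adjusted p = 0.0218). Lcn2 was highest on aKO 2, and without that array its log2 fold change was 1.10, against 1.41 with it (limma adjusted p = 0.00812 without it). Under the normexp background, which adds an offset to every signal, the log2 fold change of Steap2 was 0.84, against 1.47 as reported.

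Tfr2, the second transferrin receptor, known from liver and red cell precursors, had log2 levels of 2.21, 0.01, 2.46 and 2.71 on the Senp2-aKO arrays, against 4.61, 4.22, 4.06 and 3.97 on the control arrays. The groups did not overlap, and aKO 2 was far below the rest. Tfr2 fell by 2.36 on the log2 scale (5.15-fold, 95% interval 2.15 to 12.3, limma adjusted p = 0.0273), and without aKO 2 the log2 fold change was -1.75 (adjusted p = 0.00612). Slc22a17, a receptor of lipocalin 2, fell by 0.58 on the log2 scale (SE 0.11, adjusted p = 0.0156), and Steap4, a reductase of adipocytes, fell 1.64-fold (1.20 to 2.22, adjusted p = 0.0443). Without aKO 2 the Steap4 call was lost (log2 fold change -0.56, limma adjusted p = 0.0504). The Steap4 call held in 1 of the 8 omissions of an array, and those of Tfr2 in 3 and Lcn2 in 4.

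Among regulators, Hjv, haemojuvelin, a co-receptor that controls hepcidin in liver and is abundant in skeletal muscle, gave a signal well above background on all 4 arrays of Senp2-aKO fat and on 0 of the 4 controls. Its measured mean log2 levels were -2.85 in Senp2-aKO samples and -6.41 in controls (limma adjusted p = 0.00477). The mean of the Senp2-aKO arrays was 4.06-fold above that of the dimmest signals well above background on the control arrays. That value holds for the processed signal and is no bound under another background correction. Hjv was kept for testing through the Senp2-aKO arrays alone, so its p rests on control values at background. With no filter its limma adjusted p was 0.00930, and under the normexp background its log2 fold change was 0.92, a smaller difference than 4.06-fold. The skeletal muscle marker mean was 3.60 to 5.20 on the Senp2-aKO arrays and -1.94 to 1.91 on the control arrays, with 10 of 12 markers called higher, and its part in the Hjv result was not tested. The iron sensors Aco1, Ireb2 and Fbxl5 were among the 8 regulators that did not pass.

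Among 19 genes of mitochondrial iron and iron-sulphur clusters 2 rose and 17 did not pass. The ferredoxin Fdx1, an electron carrier of mitochondria, was among those that rose, and its relative Fdx2 stood at a log2 fold change of 0.03 (SE 0.11). Fdx1 rose 1.70-fold (95% interval 1.30 to 2.23, limma adjusted p = 0.0238), with a second probe that gave a log2 fold change of 0.79 beside 0.77; it passed in 4 of the 8 omissions. The probes of Slc25a37, mitoferrin 1, a carrier of iron into mitochondria, did not agree: the brighter, which stood for the gene, was at -0.22 on the log2 scale (SE 0.19) and the other at 1.254 (SE 0.10, adjusted p = 0.00271 in the limma fit of probes). Fdx2 and Slc25a37 were added after their values were seen. The median of the 19 was 0.07.

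In haem transport and breakdown 2 of 16 genes rose. Cd163, the macrophage receptor for haemoglobin bound to haptoglobin, had log2 levels of -0.95, -0.80, -1.34 and -1.02 on the Senp2-aKO arrays, against -2.26, -1.95, -2.50 and -1.55 on the control arrays. It rose 2.05-fold (95% interval 1.46 to 2.88, limma adjusted p = 0.0192). Of the 10 macrophage markers 0 passed and 8 had a log2 fold change above 0, from Lyz2 (0.02, SE 0.26) to Timd4 (1.09, SE 0.73). Adgre1 (-0.28, SE 0.40) and Itgam (-0.24, SE 0.11) lay below 0. The list mean was higher by 0.30 on the log2 scale. The part of macrophages in the Cd163 result was not tested. Bach1, the haem-sensing repressor of Hmox1, rose 1.73-fold (1.31 to 2.27, adjusted p = 0.0233) and passed in 4 of the 8 omissions. Hmox2, the constant form of haem oxygenase, did not pass (log2 fold change -0.19, SE 0.08).

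**Figure D4:**
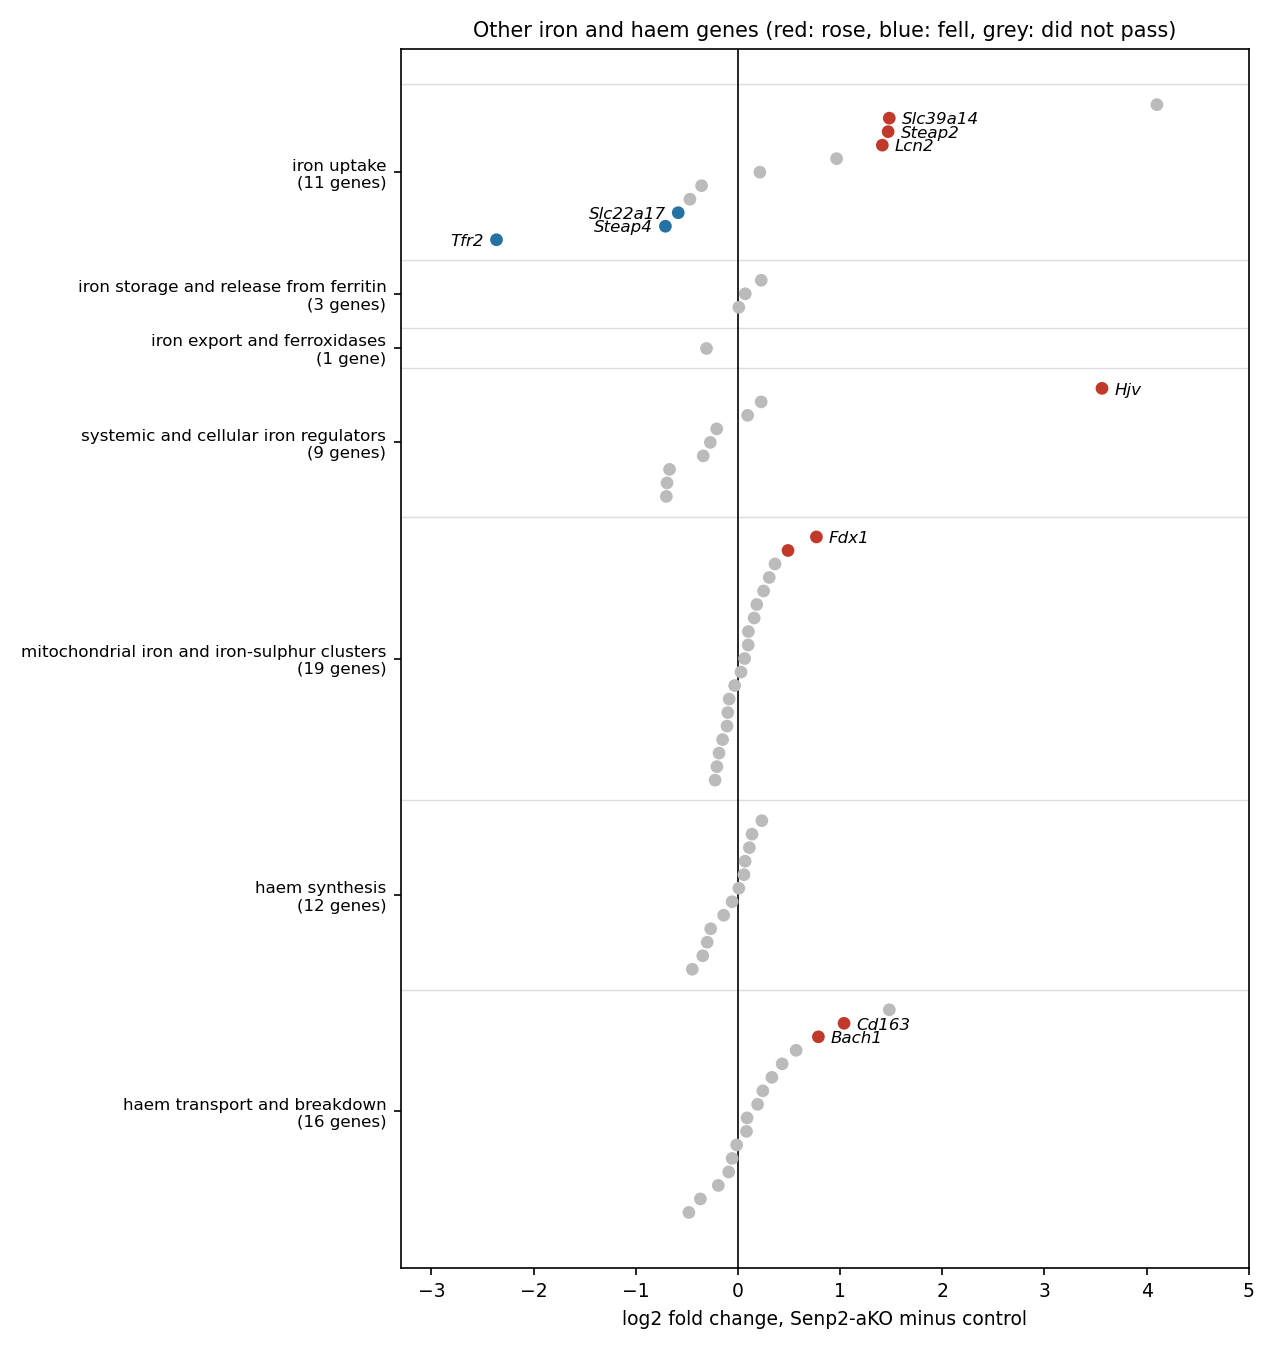
Log2 fold change, Senp2-aKO minus control, of the 71 measured other genes of iron and haem metabolism by function, each point 1 gene (red rose, blue fell, grey did not pass). Named points passed, and 1 red point has no name. The point of Hjv is drawn at its fitted value of 3.56, which rests on control values at background.

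Marker lists of cell types were read on the same arrays, and some differed between the groups while others overlapped. The 7 brown and beige adipocyte markers all rose, with a mean of 3.43 to 5.004 on the Senp2-aKO arrays and 0.22 to 0.99 on the control arrays. The adipose progenitor mean was 4.93 to 5.20 on the Senp2-aKO arrays and 4.25 to 4.69 on the control arrays, with 2 of 6 markers called higher. The mammary epithelium mean, over the 3 of 8 markers measured, was -3.10 to -1.28 on the Senp2-aKO arrays and -3.79 to -3.42 on the control arrays, without overlap, and Krt5 and Krt14 were called higher. The milk genes Csn2 and Wap were well above background on 0 arrays, and the milk gene Csn3 on 1 array of each group. Krt8 was well above background on 3 Senp2-aKO arrays and Epcam on 1, and both on 0 control arrays. The general adipocyte mean, a check of the labelled tissue, was 6.80 to 7.28 on the Senp2-aKO arrays and 7.10 to 7.34 on the control arrays, with all 8 markers measured, 0 called higher and 1 lower. The hepatocyte mean, given because Trf and Cp are known liver genes, was -1.85 to 0.76 on the Senp2-aKO arrays and -2.29 to -1.49 on the control arrays, with 1 of 6 called higher. The skeletal muscle mean, given above beside Hjv, had the largest difference of the lists, 4.60 higher on the log2 scale in Senp2-aKO fat. The part of these cells, muscle among them, in the iron and haem results was not tested. Over the 8 arrays with group means removed, the genes whose levels followed Alas1 most closely were AW549877, Zfp524 and Hps6 (Pearson r of 0.985, 0.984 and 0.968). They are the highest of 14730 genes over few arrays that share 1 slide, and are given as a description only.

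**Figure D5:**
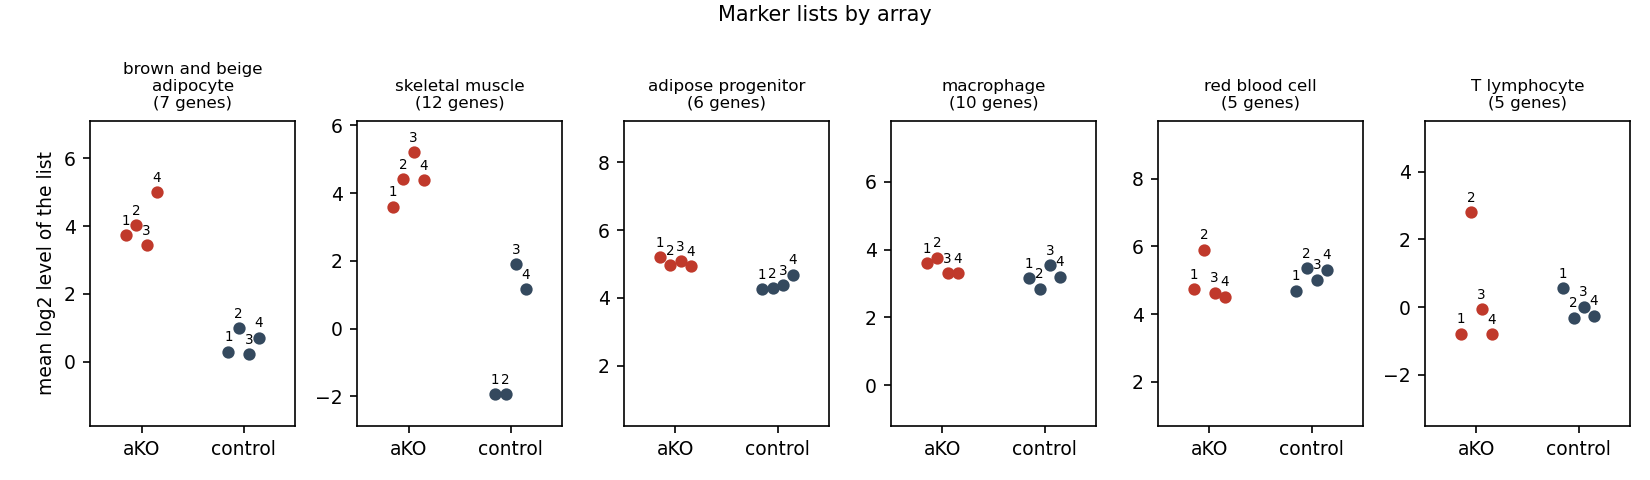
Mean log2 level of 6 marker lists on the 4 Senp2-aKO arrays (red) and the 4 control arrays (dark blue), with sample numbers beside the points; every vertical axis spans the same log2 range. Brown and beige, skeletal muscle and adipose progenitor means lie higher on all Senp2-aKO arrays, while macrophage and red blood cell means overlap and aKO 2 stands apart in T lymphocyte genes.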

How the data were processed

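Scanner images were quantified in Agilent Feature Extraction 11.5.1, per the submitters' processing notes. The deposited processed signal, median signal and local background are intensity values. The processed signal, per the file headers, is background-subtracted and detrended within the array, and it is not scaled between arrays. The deposited spot flags are of the unit other, 0 or 1. The deposited normalised matrix was not used, because its 8 sample columns match no label.

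Log2 processed signals were set relative to the array's 75th percentile, and spots of a probe were averaged without outlier-flagged spots, which left out 269 probes with no spot on some array. Probes well above background on at least 4 of 8 arrays were kept (30508), and 19231 were named through RefSeq accessions (table of GRCm38.p6). The files pair no other gene name with a probe. The probe with the highest mean stood for its gene. The group difference was fitted with limma 3.58.1 (R 4.3.3), and list means by exact permutation over 70 assignments (smallest p 0.0286). The fit was tested on simulated arrays. Precision is set by the number of arrays. The 10 genes, the lists and the tests were chosen with earlier results of these data known. Named genes were the 10, Senp2, up to 3 passing genes of each list and the 3 genes most like Alas1. Other genes were named as examples after their values were seen: 3 more passing uptake genes, genes of the lists that did not pass, and single markers. A passing gene of the mitochondrial list is counted but not reported here.

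The labels do not state that replicate numbers pair the samples. Same-numbered deviations from the group means correlated at -0.08 to 0.14 and different-numbered ones at -0.284 to 0.169, which cannot settle whether samples were paired. Alternatives were other scalings, a normexp background (offset 50), other filters, probe rules, array weights, a replicate block and omission of each array.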

Additional observations from a re-analysis of the deposited data

Results flagged for a closer look

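In Fth1, control 3 (log2 level 8.67) lay apart from the other 3 controls (8.80 to 8.83): its gap to the nearest was 0.839 of the group's range, above Dixon's 95% critical value for 4 samples. This was 1 of 20 groups examined, and chance gives about 1 in 20.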

How the results depend on the processing

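The array number limits every call, and bright genes depend on the scaling. The count of the 10 genes that rose, 1 as reported, was 0 under quantile normalisation, 0 with the replicate block, 3 with array weights (Alas1, Hmox1 and Fth1) and 0 to 2 on leaving out an array; 0 fell in all settings run. Among the other iron and haem genes 8 rose and 3 fell, against 13 and 6 with array weights, 6 lower with the normexp background, 1 lower with the replicate block, and 3 to 10 higher and 0 to 6 lower on leaving out an array. Of all genes 1074 rose and 1049 fell, against 1831 and 1932 with array weights, 1673 higher over every kept probe, 689 lower with no filter, 569 lower with the replicate block, and 434 to 1356 and 280 to 1472 on leaving out an array. The Senp2 difference of -0.27 passed under quantile normalisation (-0.27), median scaling (-0.36), normexp (-0.31), the filter on all 8 arrays (-0.27), array weights (-0.25) and without aKO 2 (-0.25), and ran from -0.30 to -0.25 on leaving out an array. Signs turned for Trf (-0.11) and Ftl1 (-0.0503) under quantile normalisation and for Slc11a2 (-0.0313) under median scaling, none of which passed in any setting; the cause was not tested. With the replicate block Alas1 kept 0.67 and lost its call (limma adjusted p = 0.0520). Naming probes by gene symbol was not run, since the scanner files hold accessions only.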
